A study of Bos grunniens and Bos grunniens x Bos taurus with 12 samples.

Results

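SOX9, SOX8, WT1, GATA4, FSHR, KITLG, CLU and TF are genes by which Sertoli cells are commonly recognised, and their translation levels were followed in testes of yak and cattle–yak. These 8 symbols were looked up among the 20965 genes of the deposited tables, of which 13662 carry a symbol. Rows were found for 7 of the 8, and no row is named CLU. A row without a symbol (ENSBGRG00000001455) is described as clusterin, the protein that CLU encodes. It is called the clusterin row here and is kept out of the counts of members. In all 7 genes and in the clusterin row, the lowest mean level of the 4 groups was that of the 4-year-old yak. For SOX8 this rests on 7 counts in 4-year yak against 10 in 18-month yak. For WT1, FSHR and TF the range of the 4-year yaks overlapped that of another group. How many of all genes have their lowest mean in this group was not counted.

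The data are Ribo-seq libraries, in which the mRNA fragments protected by ribosomes (ribosome footprints, RFs) are sequenced, so that the amount of RFs on a gene measures its translation level. Testes of 12 male animals were studied, with 1 library per animal and 3 animals in each of 4 groups: yak of 6 months, yak of 18 months, yak of 4 years and cattle–yak of 4 years. No agent or engineered allele was used. Cattle–yak is the hybrid of the species, here of Jersey bulls and yak cows, and its males are infertile. The RFs of cattle–yak were aligned to the yak genome only, so that both alleles of a hybrid were read against yak sequence. Whole testis was used, and fewer cells of a type cannot be told apart from fewer RFs per cell of that type. Libraries held 25816963 to 37167651 counts on genes in 6-month yak, 21309151 to 24542362 in 18-month yak, 16304058 to 17862516 in 4-year yak and 38437889 to 52616039 in cattle–yak. The members had 69 or more counts in every library, other than SOX8. Levels are given as FPKM (fragments per kilobase of effective gene length, scaled to the library's total), which allows genes to be compared. Differences are log2 fold changes from edgeR's quasi-likelihood test with TMM scaling, given ± their standard error with the Benjamini-Hochberg adjusted p over all genes tested. A gene was counted as a differentially translated gene (DTG) when its adjusted p was below 0.05 and its log2 fold change was at least 1 in size. With 1 library per animal, differences between animals include those of library preparation. The authors' methods give euthanasia for the 4-year yaks and castration for the cattle–yaks. They also report that these groups differed in the main RF length and in the share of reads aligned. In cattle–yak over 4-year yak, such differences cannot be told apart from those of the hybrid.

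Sertoli cells line the seminiferous tubule, enclose the germ cells and provide them with structure, hormones and nutrients. SOX9 is the transcription factor that fixes Sertoli cell fate in the fetal gonad, and SOX8 is a relative that acts with it. WT1 and GATA4 are transcription factors that start and maintain the same programme, and GATA4 is also found in Leydig cells. FSHR is the receptor through which follicle-stimulating hormone reaches the Sertoli cell. KITLG is the ligand (stem cell factor) that acts on spermatogonia through the receptor KIT. TF (transferrin) carries iron to germ cells behind the blood–testis barrier, and clusterin is a chaperone secreted in large amounts by Sertoli cells.

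The groups also differed in their germ cells and other cells, which is shown here before the members. The summed FPKM of 5 spermatid genes was 1.38 to 1.70 in 6-month yak and 9668 to 12498 in 4-year yak. In cattle–yak it was 2.98 to 32.0. The 18-month yaks did not form 1 group in this respect, with 2.86, 7196 and 17.0 in replicates 1, 2 and 3. The claudin-11 row (ENSBGRG00000006186, without a symbol in the tables), which encodes the tight junction protein of the Sertoli cell barrier, was at 9.21, 18.4 and 4.71 FPKM in 6-month yak and at 75.2, 574 and 750 FPKM in 18-month yak. It was at 833, 1317 and 713 FPKM in 4-year yak and at 1417, 1623 and 1586 FPKM in cattle–yak. Thus 18-month replicate 1 lay nearest to the 6-month yaks in both measures, and replicate 2 lay nearest to the 4-year yaks in the spermatid genes. The comparisons that rest on the 18-month yaks are therefore given with and without these libraries. Leydig cells were measured by only 2 genes of their list of 6, with summed FPKM of 1585 to 2506 in 6-month yak, 361 to 910 in 18-month yak, 58.8 to 188 in 4-year yak and 580.2 to 1041 in cattle–yak. A further row described as INSL3, a hormone of Leydig cells, differed less, with 10227 to 16627 FPKM in 4-year yak and 17019.5 to 19140 in cattle–yak, and was no DTG between them (0.52 ± 0.21, adjusted p = 0.0594, edgeR). None of the genes found from the lists for spermatids, spermatocytes or Leydig cells was at 0 in a whole group.

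**Figure D1:**
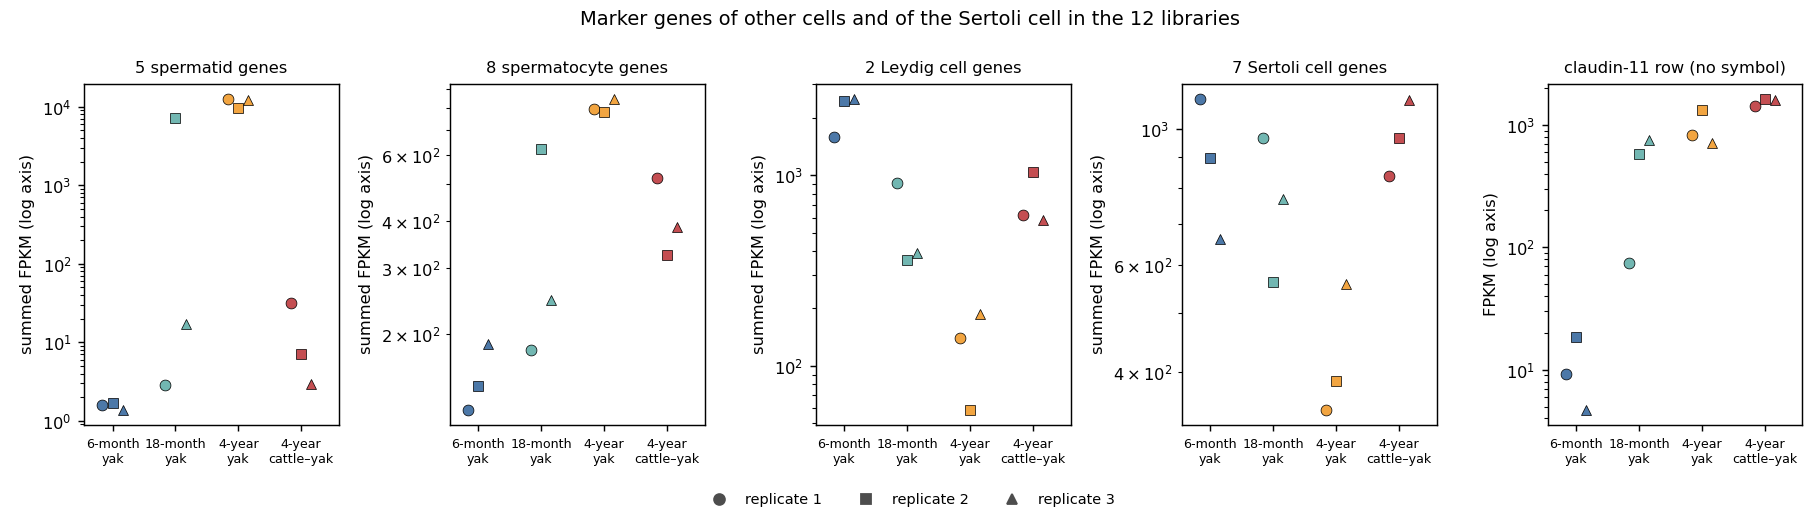
Summed FPKM of 5 spermatid, 8 spermatocyte, 2 Leydig cell and the 7 Sertoli cell genes, and FPKM of the claudin-11 row, on log axes, with 1 point per library and the marker shape giving the replicate number. The 18-month libraries spread from 2.86 to 7196 in the spermatid genes, and TF makes up 49.1% to 80.7% of the Sertoli cell sum in a library.

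SOX9 (ENSBGRG00000026479) was the member with the largest difference between cattle–yak and 4-year yak. Its FPKM was 70.1, 117 and 107 in 6-month yak, 89.4, 56.9 and 128 in 18-month yak, 41.4, 42.6 and 29.7 in 4-year yak and 209, 201 and 189.6 in cattle–yak. All cattle–yak libraries were above every yak library, and all 4-year libraries were below every other library. The log2 fold change of cattle–yak over 4-year yak was 2.41 ± 0.17 (adjusted p = 8.36e-06, edgeR), a 5.30-fold difference. SOX9 fell by 1.92 on the log2 scale from 6 months to 4 years (SE 0.21, adjusted p = 3.98e-05, edgeR). In the order of the means, cattle–yak was followed by 6-month, 18-month and 4-year yak. Of these neighbours, 6 and 18 months overlapped and did not pass the test (adjusted p = 0.418), and 18 months and 4 years did not overlap but did not pass it either (-1.47 ± 0.37, adjusted p = 0.0757, edgeR), while cattle–yak over 6-month yak gave 0.50 ± 0.16 (adjusted p = 0.0291), below the fold of a DTG.

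SOX8 (ENSBGRG00000007158) was close to the limit of detection. It had 5, 11 and 11 counts in 6-month yak, 0, 3 and 7 in 18-month yak, 2, 3 and 2 in 4-year yak, and 21, 18 and 12 in cattle–yak. It passed the filter on low counts only in the comparison of cattle–yak with 6-month yak, where its log2 fold change was -0.06 ± 0.52 (adjusted p = 0.935, edgeR). With the counts of a group added up and divided by the library totals, cattle–yak held 2.92 times the SOX8 of 4-year yak, with an exact 95% interval of 1.32 to 7.63 that covers counting error only. The highest mean FPKM of SOX8 in any group was 0.237, against 199.65 for SOX9.

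WT1 (ENSBGRG00000014474) varied less with age than the other members. Its FPKM was 43.8, 56.65 and 50.7 in 6-month yak, 47.3, 59.5 and 113 in 18-month yak, 43.9, 50.0 and 38.0 in 4-year yak and 117, 127 and 115 in cattle–yak. In FPKM the cattle–yaks were above every yak, but not on the TMM scale of the tests, where 18-month replicate 3 (130.3 CPM) lay above cattle–yak replicates 1 and 3 (125 and 129.97 CPM). The 6-month and 4-year ranges overlapped in FPKM. Cattle–yak over 4-year yak gave 1.47 ± 0.14 (adjusted p = 3.46e-05, edgeR). In yak of 4 years over 6 months the difference was -0.83 ± 0.15 (adjusted p = 0.000838), which passed the test but not the fold of a DTG. Neither cattle–yak over 18-month yak (adjusted p = 0.23) nor 18- over 6-month yak (adjusted p = 0.834) passed the test.

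GATA4 (ENSBGRG00000002675) had the largest fall with age among the members. Its FPKM was 73.45, 91.1 and 90.3 in 6-month yak, 69.6, 37.6 and 73.6 in 18-month yak, 19.65, 18.2 and 13.9 in 4-year yak and 65.4, 73.0 and 67.3 in cattle–yak. The 4-year yaks were far below all other libraries, and the lowest of the 18-month libraries was replicate 2, the one with spermatid genes. GATA4 fell by 2.86 from 6 months to 4 years (log2; SE 0.18, adjusted p = 1.27e-06, edgeR). Cattle–yak exceeded 4-year yak 3.99-fold (SE 0.16 on the log2 scale, adjusted p = 1.56e-05, edgeR). Unlike SOX9 and WT1, GATA4 was lower in cattle–yak than in 6-month yak, with -0.84 ± 0.12 (adjusted p = 0.000531), below the fold of a DTG. Cattle–yak and 18-month yak overlapped, and their difference did not pass the test (adjusted p = 0.982).

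FSHR (ENSBGRG00000011870) did not follow the transcription factors in cattle–yak. Its FPKM was 63.1, 39.35 and 40.1 in 6-month yak, 51.1, 21.8 and 25.7 in 18-month yak, 17.2, 23.9 and 17.5 in 4-year yak and 17.2, 30.3 and 24.6 in cattle–yak. The 2 groups of 4 years overlapped, with the lowest cattle–yak at the level of the lowest yak. Cattle–yak over 4-year yak gave 0.30 ± 0.22 (adjusted p = 0.244, edgeR), with a 95% interval of -0.19 to 0.80, so that a 2-fold difference lay outside the interval. The interval for SOX9 in the same comparison was 2.01 to 2.80. FSHR fell by 1.88 from 6 months to 4 years (log2; SE 0.27, adjusted p = 0.000208, edgeR). None of the neighbours in its order, 6-month, 18-month, cattle–yak and 4-year yak, passed the test (adjusted p = 0.273, 0.353 and 0.244).

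KITLG (ENSBGRG00000002777) was measured at lower levels. Its FPKM was 11.3, 17.8 and 18.4 in 6-month yak, 17.6, 14.7 and 15.4 in 18-month yak, 4.54, 6.56 and 8.40 in 4-year yak and 19.3, 25.04 and 21.8 in cattle–yak. The 4-year yaks were below all other libraries. Cattle–yak over 4-year yak gave 1.78 ± 0.23 (adjusted p = 0.000253, edgeR), and from 6 months to 4 years KITLG fell by 1.85 (log2; SE 0.26, adjusted p = 0.000207). KIT, its receptor on differentiating spermatogonia and Leydig cells, was nearly level by comparison, with 47.3, 39.4 and 42.1 FPKM in 4-year yak and 43.5, 49.2 and 56.5 FPKM in cattle–yak. For KIT, cattle–yak over 4-year yak gave 0.22 ± 0.13 (adjusted p = 0.183, edgeR).

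TF (ENSBGRG00000003633) had the highest levels and a wide spread within each group. Its FPKM was 859, 576 and 353 in 6-month yak, 694, 371 and 412 in 18-month yak, 220.0, 245 and 451 in 4-year yak and 412, 511 and 698 in cattle–yak. One 4-year yak, replicate 3, reached the cattle–yak range, and every pair of groups overlapped. Cattle–yak over 4-year yak gave 0.85 ± 0.28 (adjusted p = 0.0277, edgeR), with a 95% interval of 0.20 to 1.51. It passed the test but not the fold of a DTG, and became a DTG when 4-year replicate 3 (1.29) or cattle–yak replicate 1 (1.01) was left out. From 6 months to 4 years TF fell by 1.59 (log2; SE 0.40, adjusted p = 0.0064, edgeR), and was no longer a DTG with library-size scaling (-0.98) or on log2(FPKM + 1) (-0.95). TFRC, the receptor that takes up transferrin-bound iron, was at 57.1, 73.0 and 71.5 FPKM in 4-year yak and at 152, 143 and 149 FPKM in cattle–yak, without overlap. In cattle–yak TFRC was a DTG higher (1.15 ± 0.13, adjusted p = 8.47e-05, edgeR).

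The clusterin row was among the 24 highest of all genes in every library. Its FPKM was 13313, 10277 and 7244 in 6-month yak, 15569.7, 8908 and 13753 in 18-month yak, 3215, 4669.6 and 2683 in 4-year yak and 6194, 6249.9 and 7287 in cattle–yak. The 4-year yaks were below all other libraries, and the cattle–yaks were above them but below all 18-month yaks. The row fell by 2.14 from 6 months to 4 years (log2; SE 0.37, adjusted p = 0.000727, edgeR). Cattle–yak over 4-year yak gave 0.91 ± 0.21 (adjusted p = 0.00512), below the fold of a DTG, and 1.22 without 4-year replicate 2. Thus TF, the clusterin row and FSHR had smaller log2 fold changes in cattle–yak over 4-year yak than SOX9, WT1, GATA4 and KITLG. The differences between genes were not tested in these fits. The 95% intervals of TF (0.20 to 1.51) and of the clusterin row (0.43 to 1.39) overlapped that of WT1 (1.15 to 1.78). A second row described as clusterin-like was near the limit of detection, at 0.24 to 1.99 FPKM over the 12 libraries.

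**Figure D2:**
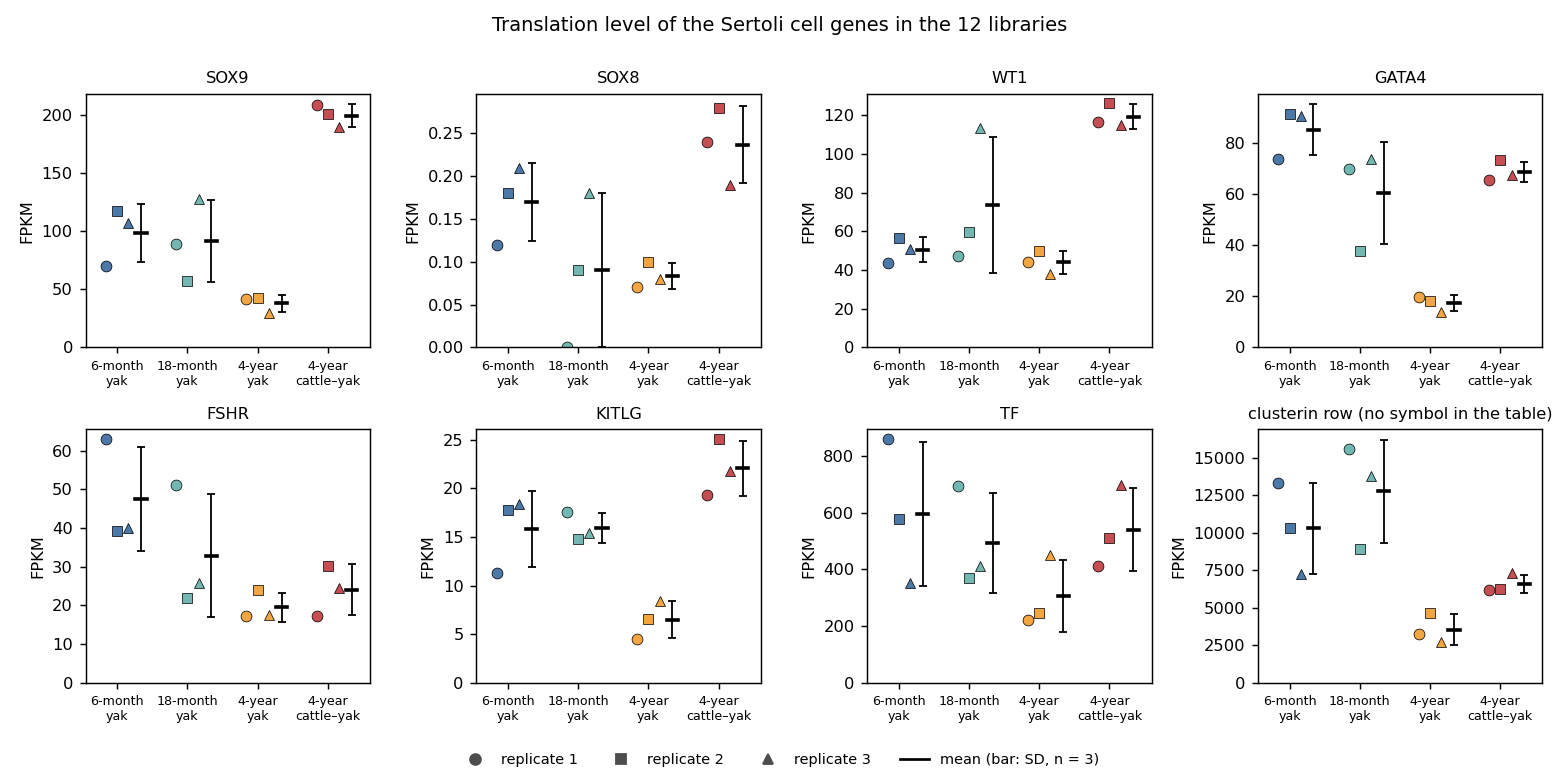
FPKM of the 7 members and of the clusterin row in each library, by group, with linear axes from 0 and the group mean ± SD (n = 3) beside the points. The 4-year yaks have the lowest mean in each panel, SOX9 is highest in cattle–yak with a mean of 199.65 against 37.9 in 4-year yak, and FSHR overlaps between these groups.

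The comparison of cattle–yak with yak of the same age asks how the hybrid testis differs from that of a fertile adult. Of 6 members tested, 4 were DTGs higher in cattle–yak (SOX9, WT1, GATA4 and KITLG) and 0 were lower, while 44.0% of all 16498 genes tested were DTGs, 17.1% higher and 27.0% lower. The median log2 fold change of the 6 members was 1.62, against 0.00 over all genes, and all 6 values were positive. By the alternatives tried, 4 or 5 members were DTGs higher and 0 were lower. Other cell types moved with this result, and their part in it was not tested. The 5 spermatid genes measured were all DTGs lower in cattle–yak, and both Leydig cell genes, 5 of 5 peritubular myoid genes and 4 of 5 fibroblast and matrix genes were DTGs higher. The summed FPKM of the peritubular myoid genes was 211 to 219 in 4-year yak and 780.2 to 1291 in cattle–yak, and that of the fibroblast and matrix genes was 128 to 167 and 393 to 657. Spermatogonia also moved with the members, with 4 of 7 genes DTGs higher and 0 lower, and a summed FPKM of 459.98 to 737 in 4-year yak and 1002 to 1189 in cattle–yak. Of 8 spermatocyte genes 0 were DTGs higher and 3 lower, and their summed FPKM was 782 to 844 in 4-year yak and 324 to 520.3 in cattle–yak. Macrophage and endothelial genes each had 0 of 5 DTGs higher and 1 lower. Their sums overlapped between 4-year yak and cattle–yak, with medians of 122 and 115 FPKM for macrophages and 14.7 and 13.2 FPKM for endothelial cells.

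Age in yak was compared to follow the testis from the juvenile to the adult. From 6 months to 4 years 5 of 6 members tested were DTGs lower, all but WT1, while 55.7% of all 16133 genes tested were DTGs, 24.7% lower and 31.0% higher. The median of the members was -1.86, against 0.08 over all genes. In the same comparison all 5 spermatid genes and 7 of 8 spermatocyte genes were DTGs higher, and 2 of 2 Leydig cell genes, 4 of 5 endothelial genes and 5 of 5 fibroblast and matrix genes were DTGs lower. Of 7 spermatogonia genes 2 were DTGs higher and 3 lower, of 5 peritubular myoid genes 0 were higher and 2 lower, and of 5 macrophage genes 1 was higher and 2 were lower. The part of these lists in the members' result was not tested. Scaling matters here, since the median over genes shifted by 0.56 with library-size scaling and by 0.54 on log2(FPKM + 1). The share of DTGs that were higher was 55.7% with TMM, 72.6% with library-size scaling and 73.4% with limma on log2(FPKM + 1), which changes the test as well. Relative to all genes the members' fall was therefore much the same, but on the FPKM scale each fall was smaller by about this shift. With either of these scalings 4 of the members were DTGs lower.

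In the edgeR fits of the 6 libraries of each comparison, no member was a DTG between 18-month yak and yak of another age. Between 6 and 18 months 0 of 6 members tested were DTGs, and 0.0672% of all 14874 genes were, 0.0202% higher and 0.0471% lower. The log2 fold changes of the members ran from -0.86 (FSHR) to 0.11 (WT1). By edgeR 1 member, GATA4, had an unadjusted p below 0.05, and over all genes 2125 with a higher and 1712 with a lower value had one. DESeq2 called 0 members, although it called more DTGs among all genes than edgeR. FSHR alone became a DTG when 18-month replicate 1 was left out (-1.48), and 0 members did when replicate 2 was left out. Over all genes, DTGs were 1344 higher and 1249 lower without replicate 1, and 34 higher and 42 lower without replicate 2. Between 18 months and 4 years 0 of 6 members tested and 0.0371% of all 16175 genes were DTGs by edgeR, all of the latter lower, although all 6 members had negative values, from -0.91 (WT1) to -2.02 (GATA4). Of these members 4 had an unadjusted p below 0.05 by edgeR, as had 3816 of all genes with a lower and 1915 with a higher value. SOX9, GATA4 and KITLG were DTGs by DESeq2, which also called many more DTGs among all genes than edgeR (see the closing section). By edgeR the adjusted p of the 6 members ran from 0.0691 (GATA4 and KITLG) to 0.171 (TF). Without 18-month replicate 2, the library with 7196 summed FPKM of spermatid genes, all 6 members were DTGs lower at 4 years. Their log2 fold changes ran from -1.06 (WT1) to -2.28 (GATA4). In that fit 3033 of all genes were DTGs lower and 4277 were DTGs higher. In 18-month replicate 2 SOX9, GATA4, FSHR, KITLG, TF and the clusterin row had their lowest 18-month levels. WT1 had its lowest level there on the TMM scale but not in FPKM.

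**Figure D3:**
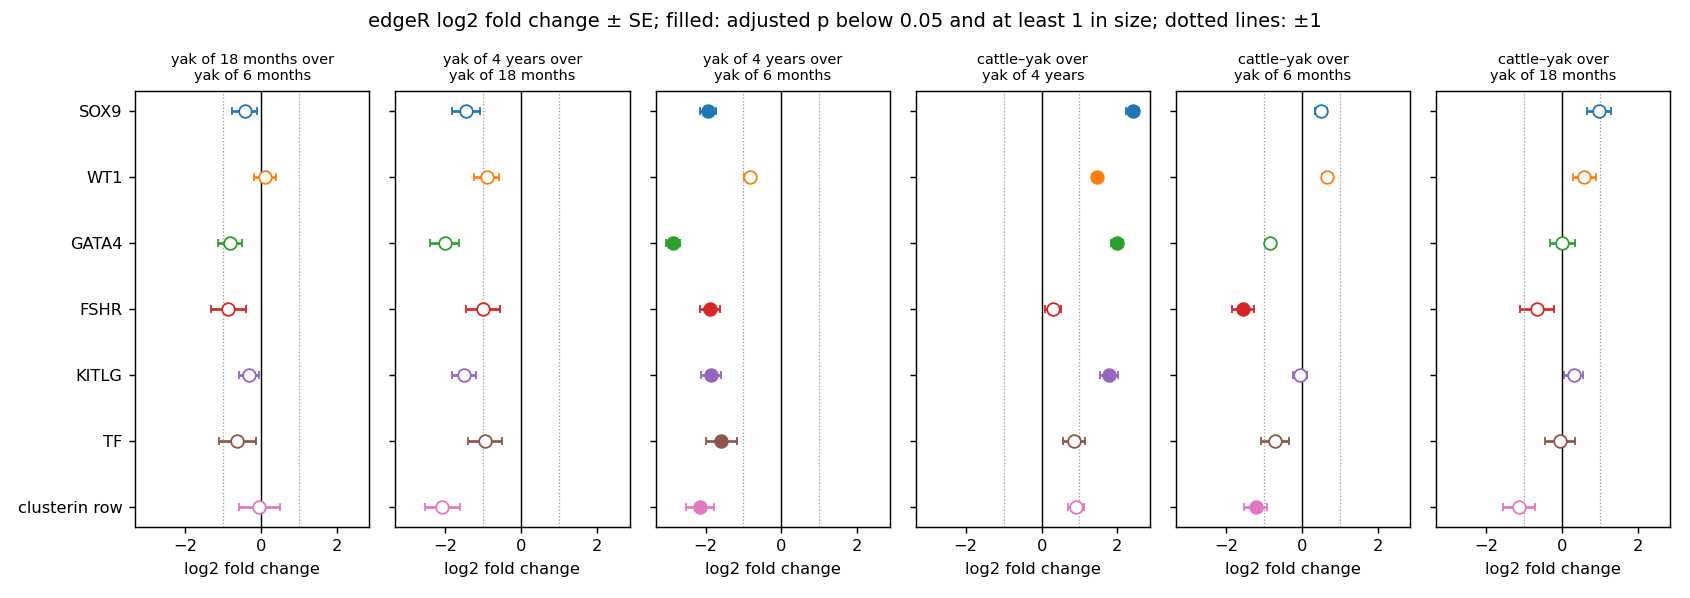
Log2 fold change ± SE (edgeR, TMM) of 6 members and the clusterin row in the 6 comparisons, the first group over the second, with filled points for DTGs and dotted lines at a 2-fold difference. The members lie to the left of 0 from 6 months to 4 years and to the right in cattle–yak over 4-year yak, where FSHR is nearest to 0 at 0.30.

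Cattle–yak was also set beside the younger yaks, and these comparisons share the cattle–yak libraries with the one above. Against 6-month yak 1 of 7 members tested, FSHR, was a DTG lower (-1.55 ± 0.30, adjusted p = 0.00253, edgeR), while 37.8% of all 15571 genes were DTGs, 19.7% lower and 18.1% higher. WT1 gave 0.66 ± 0.12 (adjusted p = 0.00237) and KITLG -0.05 ± 0.19 (adjusted p = 0.845). The clusterin row, not counted as a member, was also a DTG lower (-1.21 ± 0.30, adjusted p = 0.00926, edgeR). Under the alternatives its value ran from -1.43 to -0.60. These calls depended on the scaling. The median over genes shifted by 0.53 with library-size scaling and by 0.52 on log2(FPKM + 1), and the share of DTGs that were higher was 47.9% with TMM, 72.2% with library-size scaling and 74.0% with limma on log2(FPKM + 1). With library-size scaling SOX9 (1.02) and WT1 (1.19) became DTGs higher and FSHR (-0.98) was no longer a DTG. In the same way the FPKM of KITLG in cattle–yak was above all 6-month libraries, while its TMM-scaled level was not. Against 18-month yak 0 of 6 members tested and 5.80% of all 15702 genes were DTGs, 3.45% higher and 2.34% lower. By edgeR 1 member, SOX9 (0.97 ± 0.32, adjusted p = 0.111), had an unadjusted p below 0.05, and over all genes 2270 with a higher and 2482 with a lower value had one. By DESeq2 0 members were DTGs. Without 18-month replicate 1 or 2 again 0 members were DTGs. Over all genes, DTGs were 259 higher and 105 lower without replicate 1, and 1166 higher and 1298 lower without replicate 2. SOX9 then gave 1.06 and 0.68, WT1 0.46 and 0.40, KITLG 0.52 and 0.18, and FSHR -0.014 and -0.94. GATA4 (0.26 and -0.29) and TF (0.44 and -0.29) had opposite signs without one and without the other. The clusterin row gave -1.13 ± 0.43 (adjusted p = 0.141, edgeR) with all 18-month libraries and -0.82 without replicate 1. Without replicate 2 the row was a DTG lower (-1.39, adjusted p = 0.0152, edgeR).

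The proportions of the members within a library differed between the groups, and such ratios do not depend on the scaling of libraries. The ratio of FSHR to SOX9 in FPKM was 0.0826, 0.151 and 0.130 in cattle–yak, and lay between 0.201 and 0.900 in all 9 yak libraries. The clusterin row was at 29.7, 31.2 and 38.4 times SOX9 in cattle–yak and at 67.4 to 189.8 times SOX9 in the yak libraries. GATA4 over SOX9 was 0.313, 0.364 and 0.355 in cattle–yak, against 0.428 to 0.474 in 4-year yak and 0.777 to 1.05 in 6-month yak. In cattle–yak these 3 ratios were below those of every yak library. WT1 over SOX9 differed from them, with 0.559, 0.631 and 0.606 in cattle–yak and 1.06, 1.17 and 1.28 in 4-year yak. It was 0.472 to 0.625 in 6-month yak and 0.530, 1.05 and 0.888 in 18-month yak. In this ratio the hybrid lay within or near the 6-month range, within the 18-month range and below the 4-year yaks. KITLG over SOX9 overlapped between cattle–yak (0.0926, 0.125 and 0.115) and 4-year yak (0.110, 0.154 and 0.283). TF over SOX9 was 1.97, 2.55 and 3.68 in cattle–yak, and its lowest values were 3.29 in 6-month yak and 3.23 in 18-month yak. In 4-year yak it was 5.31 or more. SOX9 was taken as the denominator after it was seen to differ most between cattle–yak and 4-year yak. All ratios to it therefore had to be lower in that comparison, and they are given as a description. Exact permutation tests of 3 against 3 animals cannot give a p below 0.1, so no conclusion is drawn from those run on the ratios.

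**Figure D4:**
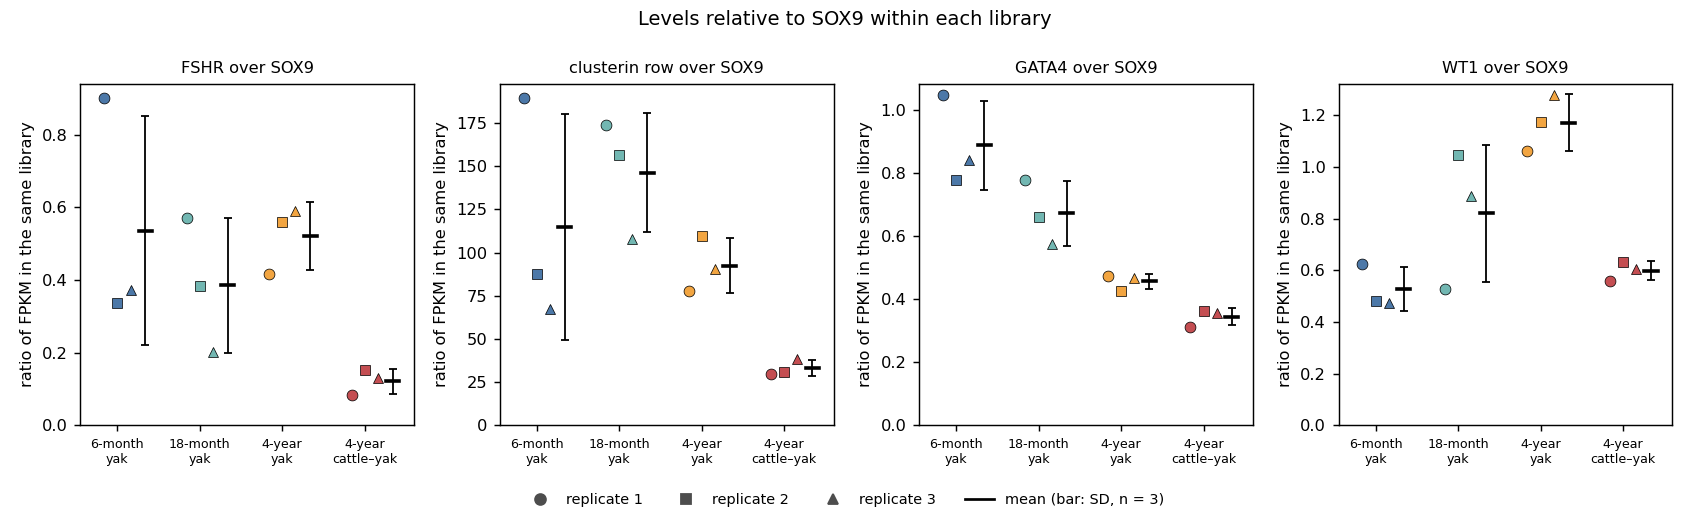
Ratio of the FPKM of FSHR, the clusterin row, GATA4 and WT1 to that of SOX9 in the same library, with linear axes from 0 and the group mean ± SD (n = 3) beside the points. Cattle–yak has the lowest ratios in the first 3 panels, with a mean of 0.121 for FSHR against 0.522 in 4-year yak, and in the last panel lies near the 6-month yaks.

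Other genes of the Sertoli cell programme were taken from lists. Of 12 tested genes for cofactors and sex determination, 7 were DTGs higher and 1 was lower in cattle–yak over 4-year yak, with a median log2 fold change of 1.20. CITED2, a transcriptional coactivator of gonad development, had the largest value (2.09 ± 0.18, adjusted p = 2.12e-05, edgeR), and SOX10, a relative of SOX8 and SOX9, the smallest (-3.38 ± 0.37, adjusted p = 8.77e-05). SOX10 was at low levels, with 2.85, 4.78 and 5.08 FPKM in 4-year yak and 0.30, 0.56 and 0.35 FPKM in cattle–yak. DMRT1, which maintains male fate and is also made by germ cells, was at 164, 197 and 158 FPKM in 4-year yak and at 435, 442 and 456 FPKM in cattle–yak. DMRT1 (1.37 ± 0.12) and NR5A1, a regulator of Sertoli and Leydig cells (1.65 ± 0.13), were both DTGs higher. From 6 months to 4 years 2 genes of this list were DTGs higher and 6 lower, beside 31.0% and 24.7% of all genes, with a median of -1.18. NR5A1 fell with age by 2.65 (SE 0.17), and DMRT1 did not, with 0.90 ± 0.18.

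Among other secreted products of the Sertoli cell, 1 of 9 tested genes was a DTG in cattle–yak over 4-year yak, with a median of 0.51. It was PLAT, the tissue plasminogen activator, which was higher (2.39 ± 0.28, adjusted p = 0.000139, edgeR). INHA, the alpha subunit of the inhibins that restrain FSH release, had 6628, 5825 and 7288 FPKM in 6-month yak, 5964, 1807 and 2568 in 18-month yak, 494, 703 and 509 in 4-year yak and 716, 950.3 and 945 in cattle–yak. INHA fell by 4.11 (log2; SE 0.28, adjusted p = 2.31e-06, edgeR) from 6 months to 4 years, more than any member, and gave 0.62 ± 0.17 (adjusted p = 0.013) in cattle–yak over 4-year yak. Cattle–yak over 6-month yak gave -3.46 ± 0.24 for INHA (adjusted p = 1.83e-05). A row described as prostaglandin D synthase, which the list's symbol PTGDS did not match, was at 3335, 4128 and 3873 FPKM in 4-year yak and at 4559, 5373 and 6042 FPKM in cattle–yak, without overlap. Its log2 fold change was 0.50 ± 0.14 (adjusted p = 0.0141, edgeR), no DTG. With age 7 of the 9 secreted products were DTGs lower and 2 were higher, beside 24.7% and 31.0% of all genes. AMH, the hormone of the immature Sertoli cell, has no row of that symbol and was not analysed here.

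Of 12 receptors and partners of the members, 3 were DTGs higher and 1 lower in cattle–yak over 4-year yak, with a median of 0.61. The extremes were LRP2 (megalin, an endocytic receptor of clusterin; 2.73 ± 0.41, adjusted p = 0.000509) at no more than 6.01 FPKM in any library, and VLDLR (a lipoprotein receptor; -1.63 ± 0.24, adjusted p = 0.000418). Of 6 tested genes for Sertoli cell structure and barrier, 4 were DTGs higher and 0 lower, with a median of 1.43. KRT18, a keratin known from immature Sertoli cells, had the largest value (3.28 ± 0.45, adjusted p = 0.00033) with a wide spread of 31.2, 63.25 and 17.7 FPKM in cattle–yak. TJP1, the scaffold protein of tight junctions, had the smallest value called (1.24 ± 0.16, adjusted p = 0.000238). KRT18 was at only 9.04, 9.30 and 9.35 FPKM in the juvenile yaks of 6 months. It was a DTG higher in cattle–yak than in these (1.48 ± 0.40, adjusted p = 0.0137, edgeR). The claudin-11 row rose by 5.90 ± 0.51 (log2, adjusted p = 9.99e-06, edgeR) from 6 months to 4 years, against the direction of the members, and gave 0.70 ± 0.22 (adjusted p = 0.0207) in cattle–yak over 4-year yak. The tables annotate 17 genes other than the members to GO terms naming Sertoli cells or male sex determination. Of these 14 were tested, and 5 were DTGs higher and 1 lower in cattle–yak over 4-year yak. Some of those higher, such as DMRT1 and NR5A1, were already counted among the cofactors. The lists share genes, and for DTGs in cattle–yak over 4-year yak the background of 17.1% higher and 27.0% lower applies to each.

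Genes with the most similar course over the 12 libraries were sought among 7633 genes, by the root mean square difference of log2 CPM centred on the mean of each gene. GATA4 was nearest to its family member GATA6, with a difference of 0.16, against a variation of 1.09 of GATA4 itself. GATA6 was at 8.28, 9.83 and 6.10 FPKM in 4-year yak and at 28.0, 30.3 and 31.1 FPKM in cattle–yak, and it was a DTG higher (1.89 ± 0.18, adjusted p = 4.42e-05, edgeR). The next gene to GATA4 was AFF2. SOX9 was nearest to UBTF (0.17) and LGALS1 (0.18), WT1 to FOXO1 (0.16) and CDC42 (0.16), and FSHR to COL6A2 (0.17) and DNASE2 (0.19). Less similar were the neighbours of KITLG (GSTA4, 0.23, and FOXJ2, 0.25), TF (GNG10, 0.31, and SLC5A11, 0.32) and SOX8 (RHOU and SPHK1, both 0.51). The nearest genes are the best of the whole search, so that their closeness cannot be set against that of the members among themselves. The closest pair of members was SOX9 and KITLG (0.47) and the most distant SOX9 and FSHR (0.99), among the 6 members other than SOX8. The 12 libraries fall into 4 groups, so these values mainly describe differences between groups.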

How the data were processed

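Ribo-seq libraries of testis from 12 animals in 4 groups of 3 were analysed. The authors trimmed reads, removed rRNA (Bowtie2) and small RNA, kept reads of 20 to 40 nt and aligned them to the yak genome BosGru 3.0 with STAR. The deposited expected counts, made by the authors with RSEM and given as whole numbers, were not normalized, and the deposited FPKM divides them by effective gene length and library total. The authors' fold changes, p-values and FDR, and 2 tables of group means, were not used. The values of libraries that occur in several of the 3 comparison tables were checked to be identical, and replicates differed beyond sampling noise (chi-square per degree of freedom of 26.4 or more).

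Low counts were removed by filterByExpr. Quasi-likelihood tests of edgeR 4.0.16 (R 4.3.3) with TMM scaling were run on the 6 libraries of each of 6 comparisons, without covariates. The standard error is the size of the log2 fold change over the square root of F, and its 95% interval uses the moderated degrees of freedom. The script was tested on simulated data. Alternatives were DESeq2 1.42.0, other scalings, no filter, all 12 libraries in 1 fit, limma 3.58.1 on log2(FPKM + 1) and log2(FPKM + 0.1), a block for the replicate number, and fits that omit 1 library at a time. Other values used Python 3.11.15.

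The members and lists were chosen with earlier results of these data known. From the lists of cofactors, secreted products, partners and structure, the text names the DTGs with the largest and smallest log2 fold change, and INHA, DMRT1, NR5A1, KIT, TFRC and claudin-11 in any case (1 further gene is not reported here); other cell types are given as counts and summed FPKM. Similar genes are the 2 nearest with a mean log2 CPM of at least 3. Names are those of the tables. The clusterin, claudin-11, INSL3 and prostaglandin D synthase rows were found by their description. No genome of the build used by the authors was at hand, so sequences and coordinates are not given.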

Additional observations from a re-analysis of the deposited data

How the results depend on the processing

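Against 4-year yak, 102 of 105 values for single genes in cattle–yak kept their direction and their side of the threshold under the alternatives, 0 reversed and 3 became DTGs. In that comparison 4 or 5 members were DTGs higher. In yak of 4 years over 6 months 4 to 6 members were DTGs lower, the 6 only with the clusterin row counted as a member, an alternative chosen after seeing the data. Over all comparisons 578 of 644 values stayed, 29 reversed, 10 were lost as DTGs and 27 were gained. The cause of the changes below was not tested. Between 6 and 18 months the DTGs higher (3 by edgeR) were 1061 with DESeq2, 104 with library size, 79 with upper quartile scaling, 1 without a filter, 1827 with all 12 libraries in 1 fit, 88 and 282 with limma on log2(FPKM + 1) and log2(FPKM + 0.1), and 0 to 1344 with a library left out. The DTGs lower (7) were in the same order 807, 49, 51, 2, 828, 59, 105 and 0 to 1249, with 0 to 1 members. Between 18 months and 4 years the DTGs higher (0) were 2092 with DESeq2, 1121 with all libraries in 1 fit, 4 and 3 with limma and 0 to 4277 with a library left out. The DTGs lower (6) were 2291, 2365, 68, 24 and 0 to 3033, with 3 members by DESeq2, 3 with all libraries in 1 fit and 0 to 6 with a library left out. The highest of these came without 18-month replicate 1 (6 to 18 months) or replicate 2 (18 months to 4 years). From 6 months to 4 years the DTGs lower (3985) were 2493 with library size, 2049 and 2464 with limma. In cattle–yak over 6-month yak the DTGs higher (2823) were 4867 with library size and 4966 with limma on log2(FPKM + 0.1), and those lower (3067) were 1875 with library size, 1355 and 1867 with limma. Members higher (0) were then 2 and members lower (1) were 0 under each of these 3 settings, and 2 were lower with the clusterin row counted. In cattle–yak over 18-month yak the DTGs higher (542) were 982 with DESeq2, 903 with all libraries in 1 fit, 819 with limma on log2(FPKM + 1) and 0 to 1166 with a library left out. Those lower (368) were 1419 with DESeq2, 178 without a filter, 1710 with all libraries in 1 fit and 0 to 1298 with a library left out. Both were 0 when any of the cattle–yak libraries was left out.

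Values near 0 changed sign. Between 6 and 18 months KITLG (-0.31) gave 0.023 with library size, 0.032 and 0.035 with limma, and the clusterin row (-0.04) gave 0.32, 0.31 and 0.31. In cattle–yak over 6-month yak SOX8 (-0.06) gave 0.46, 0.080 and 0.32 and KITLG (-0.05) gave 0.48, 0.48 and 0.50. In cattle–yak over 18-month yak TF (-0.05) gave 0.13, 0.16 and 0.16, and GATA4 (0.01) gave -0.10 with upper quartile scaling. With a library left out, WT1 and the clusterin row ranged from -0.28 to 0.28 and from -0.33 to 0.30 between 6 and 18 months, SOX8 and KITLG from -0.20 to 0.11 and from -0.18 to 0.045 in cattle–yak over 6-month yak, and GATA4 and TF from -0.29 to 0.26 and from -0.30 to 0.44 in cattle–yak over 18-month yak.

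The labels number the animals 1 to 3 in each group. Same-numbered samples correlated between -0.31 and 0.12 in their deviations, and different-numbered samples between -0.20 and 0.33. These values cannot show whether same-numbered samples shared a batch. With the replicate block the DTGs between 6 and 18 months were 235 higher and 303 lower, those lower between 18 months and 4 years were 0, and those in cattle–yak over 18-month yak were 1 higher and 0 lower, where TF gave 0.038 with the block. SOX8, with no more than 21 counts in a library, is limited by depth.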
